A study of Mus musculus with 8 samples.

Results

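Messenger RNA of 10 genes was followed across the sorted lung cells: the type II transmembrane serine proteases St14, Tmprss2, Tmprss4, Hpn, Tmprss7 and Tmprss9, the epithelial serine proteases Prss8 and Prss22, and the Kunitz-type inhibitors Spint1 and Spint2. They were taken by name from the 27179 genes of the deposited count table, and all 10 had a row. The cells came from lungs of female C57BL/6 mice (C57BL/6J in the study's methods) labelled as carrying an Eml4-Alk translocation, which those methods describe as a chromosomal rearrangement, at 11 to 12 weeks after tumor induction. Their age is taken as 18 to 22 weeks, which the methods give for the healthy mice matched to them by age. All mice had received 4.5 nmol of the protease-activatable peptide probe QZ1-(PEG2K) intravenously 2 h before the lungs were taken. Viable CD45- CD11b- cells of these lungs were sorted by QZ1 signal into QZ1-hi (labelled QZ1+, n = 4) and QZ1-lo (labelled QZ1-, n = 4). QZ1-hi and QZ1-lo are thus sorted fractions of lung suspensions, not groups of mice. The rearrangement was made by adenovirus carrying Cas9 and guides, so tumor cells and untransformed lung cells shared each sort, and each library is the average of at least 100000 cells of mixed type. The labels do not say which libraries share a mouse, so the tests below took the libraries as independent. No untreated or probe-free lung was among the libraries.

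Type II transmembrane serine proteases are anchored by a segment near their amino terminus and carry their catalytic domain outside the cell. On epithelia they act in cascades: matriptase, the product of St14, and the glycolipid-anchored protease prostasin, the product of Prss8, activate each other, act on pro-hepatocyte growth factor, the receptor PAR2 and the epithelial sodium channel, and are held in check by the Kunitz inhibitors HAI-1 (Spint1) and HAI-2 (Spint2). In the lung this system is known for control of barrier function and of the fluid lining the airways and alveoli.

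The main result was a shared lower level in QZ1-hi. Of the 9 genes with enough counts to be tested, 7 were lower in QZ1-hi (Tmprss2, Tmprss7, St14, Prss22, Spint1, Spint2 and Prss8) and 0 were higher by edgeR's quasi-likelihood test at an adjusted p under 0.05, against 8.21% of the 15583 genes tested that were lower and 9.88% that were higher. At an unadjusted p under 0.05 the count higher was also 0, and DESeq2 and limma-voom called none higher. Tmprss7, at 0 counts in QZ1-hi, could enter the test only through QZ1-lo, and without it 6 of 8 were lower. The median log2 fold change of QZ1-hi over QZ1-lo was -1.19 over the 9 genes and 0.02 over all genes tested. Tmprss4 and Hpn did not pass the test, and Tmprss9 had too few reads to enter it. Several of the 10 genes belong to protease families that the study had itself compared in these same samples, so the list is not independent of them.

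Total counts were 18380918 to 26847938 per library. Mitochondrial and ribosomal RNA genes took 39.5% to 58.4% of the counts in QZ1-hi and 30.2% to 47.3% in QZ1-lo. Levels are given as CPM, read counts over library size, after TMM scaling, which corrects that size for composition, and 3 counts, taken as the detection floor, were worth 0.0894 to 0.179 CPM. Marker RNA of other cell classes also differed between the groups: all 10 endothelial markers and 7 of 10 pericyte and fibroblast markers were higher in QZ1-hi, all 10 pan-epithelial markers were lower, and 0 of 9 leukocyte markers were called by edgeR (0 also at an unadjusted p under 0.05, in DESeq2 and in limma-voom, with a summed level of 2946 to 6358 CPM in QZ1-hi and 2231 to 4247 CPM in QZ1-lo). That sum was mostly Lyz2, with means of 3600 CPM in QZ1-hi and 2534 CPM in QZ1-lo. Which cells the Lyz2 RNA came from was not tested, so the sum is not a measure of leukocyte RNA. Ptprc, which encodes CD45, averaged 131 and 125 CPM. Of 5 basal cell markers 3 were tested and 0 called by edgeR, at an unadjusted p under 0.05, in DESeq2 or in limma-voom. Of 9 mast cell and basophil markers only Kit was tested, and it was higher. The other 8 had too few counts, 3 of them at 0 in every library, so this rise is that of Kit alone and not of the list. Which cells the Kit RNA came from was not tested. In such bulk libraries, fewer cells of a type and less RNA per cell cannot be told apart.

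The promoters of members that moved together and of one that did not are shown, because they give the DNA in front of annotated starts of the genes compared below. Each window holds the 250 bases before an annotated start in the RefSeq annotation of mouse GRCm38.p6, written 5′ to 3′ on the gene's strand. Only Spint1, Spint2, Hpn, Tmprss2 and Tmprss9 matched the promoter table. Those of Tmprss2 (chr16:97611196-97611445, minus strand, inside the span of the gene given below and so not before its outermost start), Spint1 (chr2:119237110-119237359, plus strand), Spint2 (chr7:29281978-29282227, minus strand, partly inside the span of its gene and so not wholly before its outermost start) and the upstream start of Hpn (chr7:31115327-31115576, minus strand) are printed, with capitals marking matches on either strand to GGGCGG, the core of GC boxes, and to CCGGAAG, an ETS-type core.
Tmprss2 promoter: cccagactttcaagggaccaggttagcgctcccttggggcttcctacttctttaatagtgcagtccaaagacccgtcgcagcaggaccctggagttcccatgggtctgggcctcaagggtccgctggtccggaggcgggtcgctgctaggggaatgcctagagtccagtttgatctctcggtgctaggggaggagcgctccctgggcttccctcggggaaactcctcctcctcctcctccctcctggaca
Spint1 promoter: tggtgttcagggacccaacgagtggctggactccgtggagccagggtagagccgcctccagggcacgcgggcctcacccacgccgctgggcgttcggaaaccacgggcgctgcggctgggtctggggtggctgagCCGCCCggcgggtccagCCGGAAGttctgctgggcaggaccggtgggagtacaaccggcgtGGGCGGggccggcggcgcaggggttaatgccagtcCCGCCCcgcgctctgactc
Spint2 promoter: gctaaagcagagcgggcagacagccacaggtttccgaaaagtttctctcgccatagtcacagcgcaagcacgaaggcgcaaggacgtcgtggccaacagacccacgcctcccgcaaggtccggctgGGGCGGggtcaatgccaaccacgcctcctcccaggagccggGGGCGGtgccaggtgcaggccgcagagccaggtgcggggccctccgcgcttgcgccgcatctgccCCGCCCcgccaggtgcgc
Hpn promoter: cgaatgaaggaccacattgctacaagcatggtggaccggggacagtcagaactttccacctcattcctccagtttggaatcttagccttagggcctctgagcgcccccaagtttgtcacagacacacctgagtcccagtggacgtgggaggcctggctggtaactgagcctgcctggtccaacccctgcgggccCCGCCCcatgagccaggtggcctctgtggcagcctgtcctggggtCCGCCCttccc

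The pair of inhibitor promoters were alike in composition. Spint1 held 26 CpG and Spint2 held 24, against 10 for Tmprss2, 7 for Hpn and a median of 6 over all 32851 promoter windows. GGGCGG matched 3 times in Spint1, 3 times in Spint2, 2 times in Hpn and 0 times in Tmprss2, and 32.7% of all windows held it. CCGGAAG matched once, in Spint1 (6.91% of all windows). AACCNGTT, the core bound by grainyhead-like factors (1.79% of windows), and TGTTTAC, a forkhead core (3.17%), were searched on both strands and matched in none of the printed windows. These matches describe letters in the windows only.

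St14 encodes matriptase, the central protease of this system (chr9:31088590-31131811, minus strand, GRCm38.p6, as are all gene positions here). Its level was 65.5, 53.2, 32.1 and 42.4 CPM in QZ1-hi libraries 1 to 4, and 135, 103, 148 and 106 CPM in QZ1-lo libraries 1 to 4. Every QZ1-hi library was below every QZ1-lo library, with QZ1-hi library 3 the lowest of all. The means were 48.3 ± 14.3 and 123 ± 22.0 CPM (SD, n = 4 each), a 2.54-fold lower level in QZ1-hi (log2 fold change -1.35, SE 0.21, adjusted p = 0.00134, edgeR). The exact two-sided permutation test over the 8 libraries gave p = 0.0286, the smallest that 4 against 4 allows.

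Tmprss2 encodes a protease that primes viral surface proteins on airway and alveolar cells (chr16:97564682-97659541, minus strand). QZ1-hi libraries 1 to 4 had 10.8, 15.8, 12.4 and 10.2 CPM, and QZ1-lo libraries 1 to 4 had 33.3, 41.3, 57.1 and 41.9 CPM. The highest QZ1-hi library was under the lowest QZ1-lo library, so the groups did not overlap. The means were 12.3 ± 2.48 and 43.4 ± 9.94 CPM (SD, n = 4 each), 3.52-fold lower in QZ1-hi (log2 fold change -1.82, SE 0.20, adjusted p = 0.000278, edgeR; exact permutation p = 0.0286). A more negative log2 fold change was found for 2.84% of the genes tested.

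Hpn encodes hepsin, a protease best known from liver that can also activate pro-hepatocyte growth factor (chr7:31098725-31115326, minus strand). It had 13.7, 9.04, 10.2 and 6.61 CPM in QZ1-hi libraries 1 to 4, and 7.45, 10.05, 12.7 and 7.33 CPM in QZ1-lo libraries 1 to 4. The groups overlapped over almost their whole range, with means of 9.90 ± 2.96 and 9.39 ± 2.56 CPM. On the log2 scale the difference came to 0.08 (SE 0.27, adjusted p = 0.886, edgeR; exact permutation p = 0.8).

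Tmprss4, a transmembrane protease that also acts on the epithelial sodium channel (chr9:45172726-45204119, minus strand), had 15, 8.74, 16.4 and 7.15 CPM in QZ1-hi libraries 1 to 4 and 8.65, 13.9, 11.5 and 10.2 CPM in QZ1-lo libraries 1 to 4. QZ1-hi held both the highest and the lowest library. On the log2 scale the difference came to 0.10 (SE 0.28, adjusted p = 0.866, edgeR), with means of 11.8 ± 4.55 and 11.1 ± 2.21 CPM. Its exons share 412 bases with Gm17099, an antisense gene. Searched on both strands, 11.9% of its 50-base stretches occur in another gene, and part or all of these may lie in that same overlap. The strand setting of the counting is not given in the sources used here, so part of these reads could come from another gene. The direction of Tmprss4 and Hpn turned with scaling: with library size alone their log2 fold changes were -0.26 and -0.31, where the median of all genes also moved to -0.44.

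Tmprss7, matriptase-3 (chr16:45656309-45698553, minus strand), and Tmprss9, polyserase-1 (chr10:80871117-80899495, plus strand), were at 0 counts in all 4 QZ1-hi libraries. Tmprss7 had 14, 23, 15 and 23 counts in QZ1-lo libraries 1 to 4, or 0.417, 0.936, 0.543 and 0.941 CPM. Tmprss9 had 41, 23, 0 and 5 counts in QZ1-lo libraries 1 to 4, or 1.22, 0.936, 0 and 0.205 CPM. Tmprss7 was therefore seen in each QZ1-lo library and Tmprss9 in 3 of them, both near the floor. Against a floor of 3 counts in each QZ1-hi library, Tmprss7 was at least 4.52-fold lower (adjusted p = 0.00718, edgeR; exact permutation p = 0.0286) and Tmprss9 at least 3.77-fold lower, or at least 2.42-fold without QZ1-lo library 1. Tmprss9 did not reach the count minimum. Fitted without one it had an adjusted p of 0.0521 by edgeR and 0.0141 by DESeq2, and its exact permutation p was 0.143. Tmprss7 passed the minimum only through QZ1-lo, so it could enter the test only by being higher there.

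Prss8 encodes prostasin, the glycolipid-anchored partner of matriptase (chr7:127925717-127930149, minus strand). QZ1-hi libraries 1 to 4 had 22.1, 15.5, 8.27 and 16.0 CPM, and QZ1-lo libraries 1 to 4 had 28.1, 30.9, 25.5 and 25.6 CPM. The groups did not overlap, and QZ1-hi was the more scattered, with means of 15.5 ± 5.67 and 27.6 ± 2.55 CPM. Prss8 was 1.78-fold lower in QZ1-hi (log2 fold change -0.83, SE 0.24, adjusted p = 0.0361, edgeR; exact permutation p = 0.0286). The call was lost when 1 library was left out: adjusted p was 0.0684 and 0.0710 without QZ1-hi library 2 or 4, and 0.0766, 0.0940, 0.0542 and 0.0563 without QZ1-lo library 1, 2, 3 or 4. The exons of Prss8 overlap 122 bases of Kat8 on the other strand.

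Prss22 encodes tryptase epsilon, a secreted serine protease of airway epithelium (chr17:23993534-24000722, minus strand). QZ1-hi libraries 1 to 4 had 1.61, 2.12, 3.12 and 1.97 CPM, and QZ1-lo libraries 1 to 4 had 4.08, 5.29, 7.67 and 3.11 CPM. QZ1-lo library 4 fell just under QZ1-hi library 3, so the groups touched. Prss22 was 2.29-fold lower in QZ1-hi (log2 fold change -1.19, SE 0.37, adjusted p = 0.0448, edgeR), while the exact permutation p was 0.0571. The call was lost in limma-voom (adjusted p = 0.0757), without the count filter (0.0521 in edgeR), and without QZ1-hi library 1, 2 or 4 (adjusted p = 0.109, 0.0834 and 0.0994) or QZ1-lo library 1, 2 or 3 (adjusted p = 0.0627, 0.0957 and 0.135).

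Spint1 encodes HAI-1, a transmembrane inhibitor of matriptase, hepsin and prostasin (chr2:119237360-119249535, plus strand). QZ1-hi libraries 1 to 4 had 35.8, 28.9, 21.4 and 30.9 CPM, and QZ1-lo libraries 1 to 4 had 72.4, 65.3, 66.8 and 63.0 CPM. The groups were far apart, and the QZ1-lo libraries were nearly level. The means were 29.3 ± 6.01 and 66.9 ± 4.00 CPM, 2.28-fold lower in QZ1-hi (log2 fold change -1.19, SE 0.15, adjusted p = 0.000548, edgeR; exact permutation p = 0.0286).

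Spint2 encodes HAI-2, the second inhibitor of the same proteases (chr7:29256330-29282059, minus strand). QZ1-hi libraries 1 to 4 had 94.9, 78.3, 49.2 and 54.9 CPM, and QZ1-lo libraries 1 to 4 had 124, 130, 149 and 119 CPM. Again no QZ1-hi library reached the lowest QZ1-lo library. The means were 69.3 ± 21.2 and 131 ± 13.1 CPM, 1.88-fold lower in QZ1-hi (log2 fold change -0.91, SE 0.20, adjusted p = 0.00752, edgeR; exact permutation p = 0.0286).

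**Figure D1:**
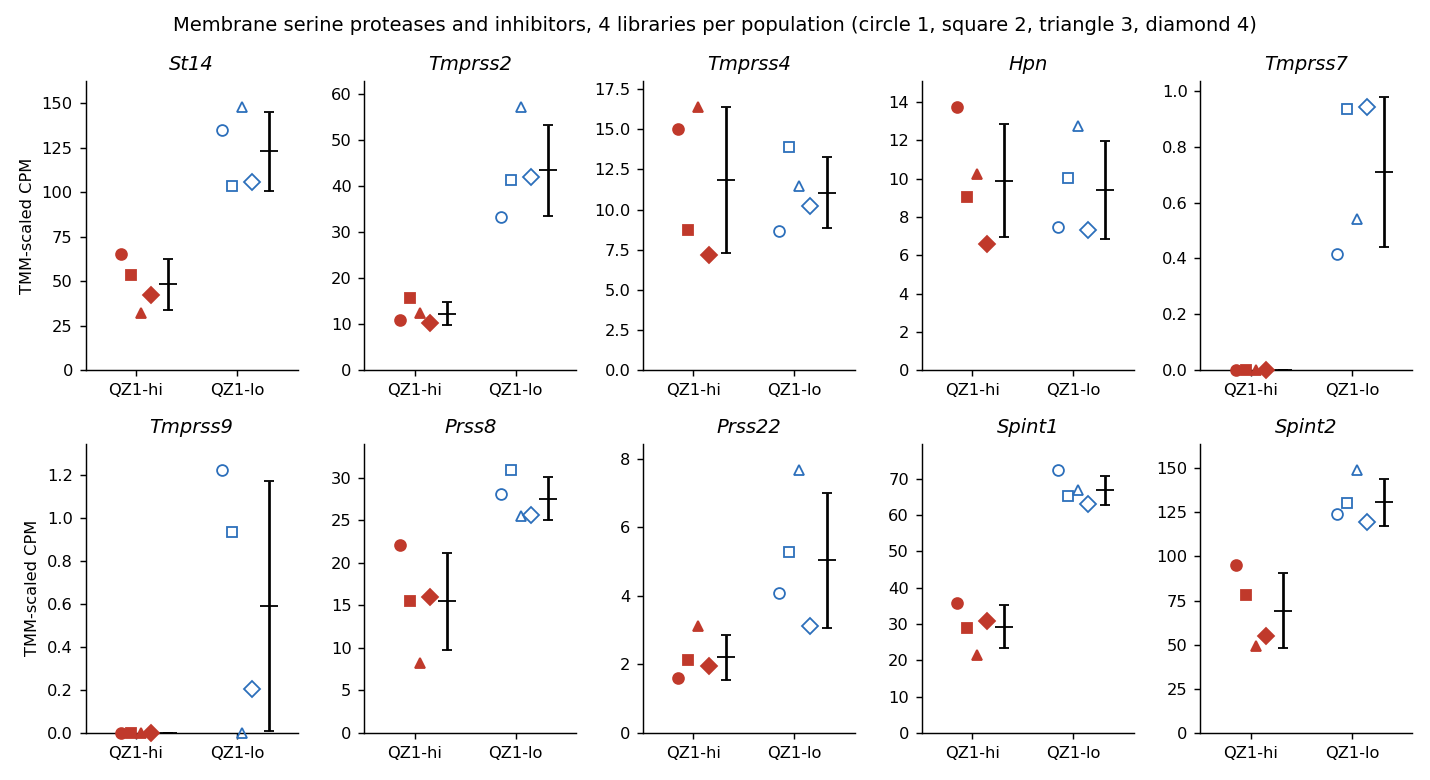
TMM-scaled CPM of each gene (vertical axes from 0) in the 4 QZ1-hi libraries (filled red) and the 4 QZ1-lo libraries (open blue), with marker shapes for libraries 1 to 4 and black bars for the mean ± SD. Tmprss2, Tmprss7, St14, Prss8, Spint1 and Spint2 do not overlap between the groups, whereas Hpn and Tmprss4 do.

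Of the 9 members tested, 6 had every QZ1-hi library below every QZ1-lo library, against 10.7% of all genes tested. They were Tmprss2, St14, Prss8, Spint1, Spint2 and Tmprss7. Tmprss7, at 0 in QZ1-hi, passed the count minimum only through QZ1-lo, so it could fall only on this side and lends the count no support. QZ1-hi library 1 was the highest QZ1-hi library for St14, Prss8, Spint1, Spint2 and Hpn. QZ1-hi library 3 was the lowest for St14, Prss8, Spint1 and Spint2 but the highest for Tmprss4 and Prss22. In QZ1-lo, library 3 was the highest for Tmprss2, St14, Hpn, Prss22 and Spint2.

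Levels can be ordered between genes only per length, so CPM was divided by the kilobases of exon of each gene. In QZ1-lo the mean level per kilobase was highest for Spint2 (28.7 CPM per kb) and Spint1 (24.2), followed by St14 (16.1), Prss8 (14.9), Tmprss2 (5.94), Tmprss4 (4.27), Prss22 (3.81), Hpn (2.29), Tmprss7 (0.250) and Tmprss9 (0.155). The inhibitors thus stood above every protease in QZ1-lo. The ranges over libraries were separate between Spint2 and Spint1, Spint1 and St14, Prss8 and Tmprss2, and Hpn and Tmprss7, and overlapped between the other neighbours. In QZ1-hi the order was Spint2 (15.2 CPM per kb), Spint1 (10.6), Prss8 (8.35), St14 (6.33), Tmprss4 (4.56), Hpn (2.42), Tmprss2 (1.69) and Prss22 (1.67), with Tmprss7 and Tmprss9 at 0. All neighbours down to Prss22 overlapped there. Tmprss2 thus stood above Tmprss4 and Hpn in QZ1-lo and below them in QZ1-hi.

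**Figure D2:**
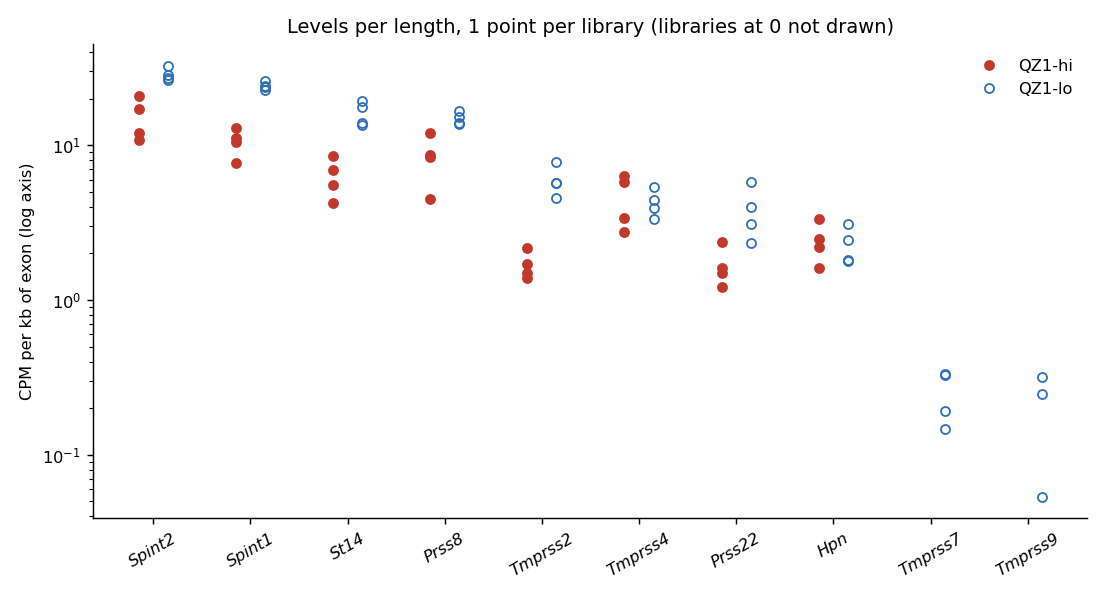
CPM per kilobase of exon (log axis) of each gene, ordered by its QZ1-lo mean, with 1 point per library, QZ1-hi filled red and QZ1-lo open blue. The inhibitors lie highest in both groups, Tmprss2 drops below Tmprss4 and Hpn in QZ1-hi, and the 0 values of Tmprss7 and Tmprss9 are not drawn.

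Ratios within a library do not depend on how libraries were scaled. They are given per length on the log2 scale and as a description. The Spint1 to St14 ratio was 0.77 ± 0.21 in QZ1-hi and 0.60 ± 0.21 in QZ1-lo, with overlap. The Spint2 to St14 ratio was 1.27 ± 0.10 in QZ1-hi and 0.85 ± 0.20 in QZ1-lo without overlap, or 2.40 and 1.80 on the linear scale. So Spint2 stood higher over St14 in each QZ1-hi library than in any QZ1-lo library, and Spint1 did not. The Tmprss2 to St14 ratio was -1.88 ± 0.52 and -1.45 ± 0.34, with overlap. The Prss8 to St14 ratio was 0.37 and -0.10, and the Spint1 to Spint2 ratio -0.50 and -0.24, both with overlap. Larger gaps appeared for the proteases that did not pass the test of their level: Hpn to St14 was -1.39 ± 0.46 in QZ1-hi and -2.83 ± 0.36 in QZ1-lo, and Tmprss4 to St14 was -0.51 ± 0.76 and -1.92 ± 0.46, both without overlap. Hpn was at 1.41 times the Tmprss2 level per kilobase in QZ1-hi and 0.382 times in QZ1-lo, again without overlap. St14 (log2 fold change -1.35) and Tmprss2 (-1.82) were themselves lower in QZ1-hi, while the median of all genes was 0.02. A gene of unchanged level therefore shows such a gap to them, so the gaps are no trait of Hpn and Tmprss4. The share of all genes with such a gap was not computed.

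**Figure D3:**
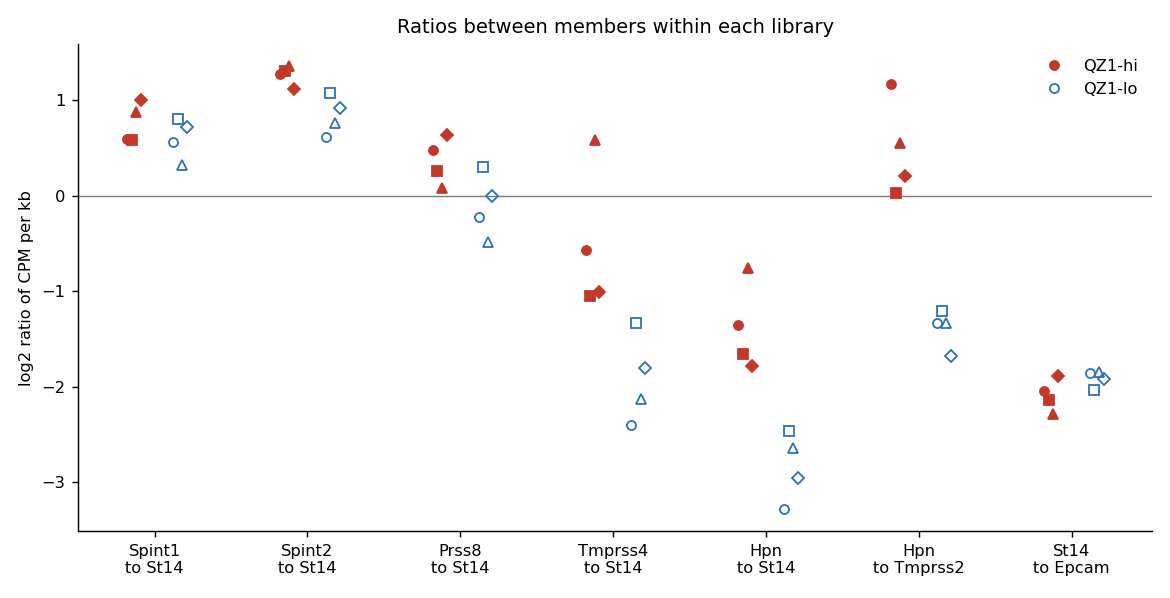
Log2 ratio of CPM per kilobase between pairs of genes in each library, QZ1-hi filled red and QZ1-lo open blue, with marker shapes for libraries 1 to 4. The groups are separate for Spint2 to St14, Tmprss4 to St14, Hpn to St14 and Hpn to Tmprss2, and mixed for Spint1 to St14, Prss8 to St14 and St14 to Epcam.

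The lower levels were set beside those of epithelial genes in general. In the sort, QZ1 signal was gated against EpCAM, and the study separates the fractions by limits of QZ1 signal, with no EpCAM limit given. Epcam, which encodes the adhesion protein EpCAM, had 58.7 ± 16.3 CPM in QZ1-hi and 132 ± 17.4 CPM in QZ1-lo (log2 fold change -1.17, adjusted p = 0.00158, edgeR). The 10 pan-epithelial markers had a median log2 fold change of -1.23, and their summed level was 595 to 914 CPM in QZ1-hi and 1614 to 2230 CPM in QZ1-lo. St14, Spint1 and Prss22 had log2 fold changes close to that median. The St14 to Epcam ratio was -2.09 ± 0.17 and -1.91 ± 0.09 on the log2 scale per length, with overlap.

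A second fit scaled each library to the geometric mean of those 10 markers, so that a value of 0 means a change equal to theirs. In that fit 0.815% of all genes tested were lower and 76.8% were higher in QZ1-hi, and the median of all genes was 1.27 on the log2 scale. St14 was at -0.12 (SE 0.19), Spint1 at 0.04 (SE 0.20), Prss22 at 0.11 (SE 0.41), Spint2 at 0.29 (SE 0.18) and Prss8 at 0.37 (SE 0.25), none past the threshold in edgeR. These 5 genes were thus not shown to differ from the epithelial markers, with adjusted p between 0.153 and 0.850. Prss8 passed it as higher, at 0.55 (adjusted p = 0.0465, edgeR), without QZ1-hi library 3.

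Tmprss2 was lower than the epithelial markers in this fit. It was at -0.57 (SE 0.22, adjusted p = 0.0302, edgeR), and this call was lost in limma-voom, at an adjusted p of 0.0621, and when libraries were scaled to Epcam and Cdh1 alone (0.0900, edgeR) or to the summed marker counts (0.0885, edgeR). Leaving out QZ1-hi library 1 also ended it (adjusted p = 0.0857, edgeR), as did leaving out QZ1-lo library 2, 3 or 4 (0.0639, 0.0760 and 0.0774). Tmprss7 had an adjusted p of 0.00524 (edgeR), with the same limit that it entered the test only through QZ1-lo. Hpn, at 1.30 (SE 0.25, adjusted p = 0.000498), and Tmprss4, at 1.32 (SE 0.30, adjusted p = 0.00152), were higher relative to the markers, as were 76.8% of all genes, and lay near the median of all genes in this scaling.

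**Figure D4:**
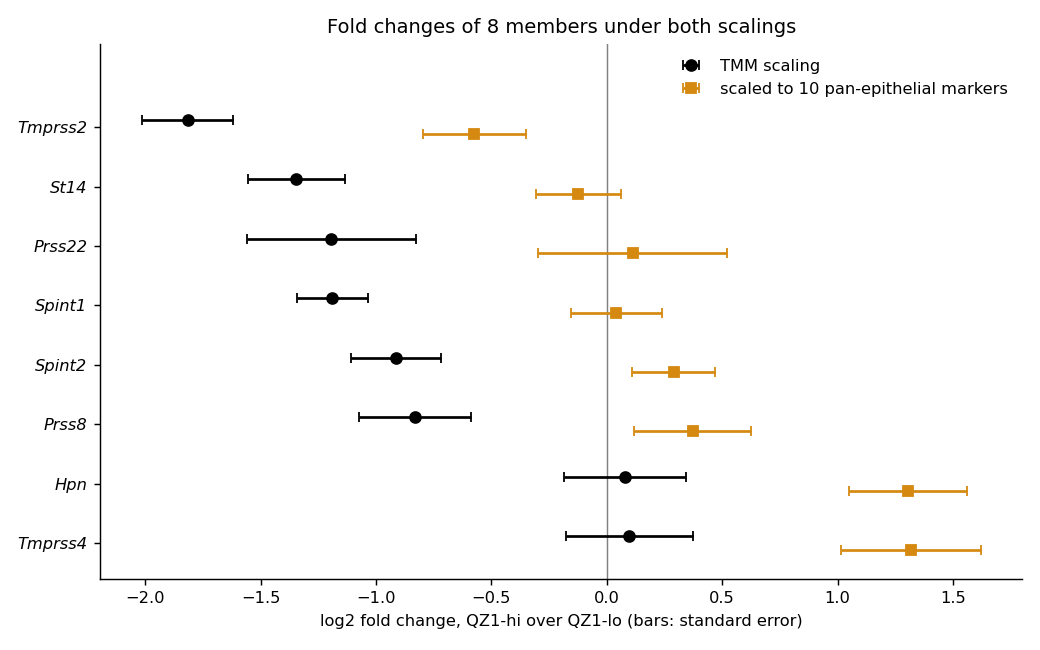
Log2 fold change of QZ1-hi over QZ1-lo with its standard error for 8 genes, under TMM scaling (black circles) and with libraries scaled to 10 pan-epithelial markers (orange squares). St14, Spint1 and Prss22 move to about 0 under the second scaling, Tmprss2 remains at -0.57, and Hpn and Tmprss4 move from about 0 to 1.30 and 1.32.

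Marker RNA of the kinds of epithelial cell differed unequally between the groups. Of 7 club cell markers 6 were lower in QZ1-hi (median log2 fold change -1.75, summed level 407 to 1114 CPM in QZ1-hi and 1681 to 4280 CPM in QZ1-lo), and so were all 7 ciliated cell markers (median -2.07, 70.8 to 207 and 333 to 640 CPM). Alveolar type 1 markers were divided, 4 of 8 lower (Ager, Hopx, Aqp5 and Rtkn2) and 2 higher (Cav1 and Pdpn). The study lists Pdpn for lymphatic endothelium as well as for alveolar type 1 cells. Cav1, at 2.82, was the highest of this list, and the endothelial median was 3.45. Which cells the Cav1 and Pdpn RNA came from was not tested. Of 8 alveolar type 2 markers 0 were lower by edgeR (0 at an unadjusted p under 0.05, in DESeq2 and in limma-voom) and 2 were higher (Sftpc and Slc34a2), with a median of 0.39 and a summed level of 6270 to 11518 CPM in QZ1-hi and 4616 to 7261 CPM in QZ1-lo. The log2 fold change of Tmprss2 (-1.82) therefore lay between the club and the ciliated medians, and those of Hpn and Tmprss4 lay between the basal (-0.10) and alveolar type 2 medians, near the median of all genes. The part of any cell type in the members' differences was not tested.

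Scaling to the markers of single cell types, added after the data were seen, moved the members with it. Scaled to the 8 alveolar type 2 markers, Tmprss2 (-2.18), St14 (-1.76), Spint1 (-1.59), Prss22 (-1.50), Spint2 (-1.34) and Prss8 (-1.26) were all lower in QZ1-hi. Scaled to the club and ciliated markers, Prss8 (1.18) and Spint2 (1.08) were higher, while Tmprss2 (0.066), St14 (0.62), Spint1 (0.77) and Prss22 (0.73) did not pass the edgeR test. For these 6 genes the sign differed between the 2 cell bases.

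**Figure D5:**
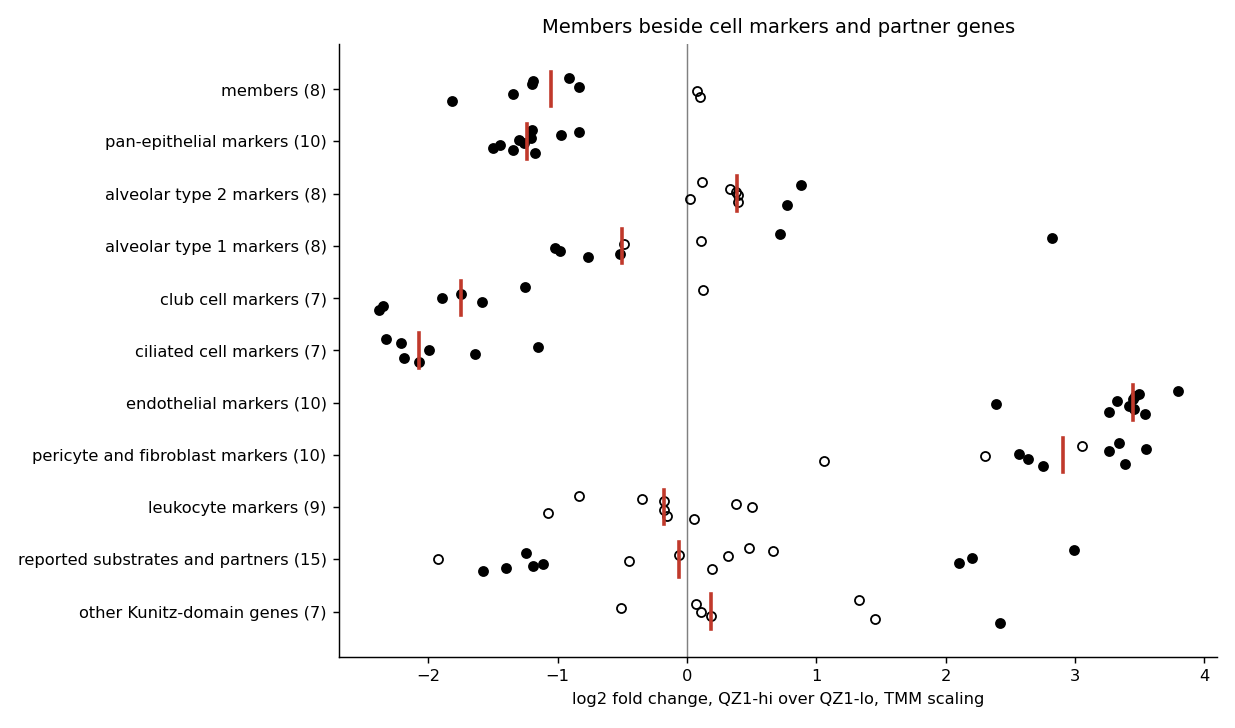
Log2 fold change of QZ1-hi over QZ1-lo under TMM scaling for the tested genes of the lists shown (number drawn in brackets), filled where the adjusted p was under 0.05, with a red line at the median of the genes drawn. The basal cell, mast cell and basophil, and other membrane-anchored protease lists are not shown. Tmprss7, at 0 in QZ1-hi, is not drawn and not part of the members' red line. The other called members lie on the side of the pan-epithelial markers, and Hpn and Tmprss4 lie near 0.

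Across the 8 libraries, the genes whose log2 CPM was most like that of St14 were Klc3, a kinesin light chain (Pearson's r = 0.994), Tmc4, a transmembrane channel-like gene (0.992), Tpm1, a tropomyosin (0.991), Ssx2ip (0.990) and Atp1b1, a sodium pump subunit (0.989). Among the members the likeness was 0.973 for Spint1 and 0.973 for Spint2, 0.899 for Prss8, 0.891 for Tmprss2, 0.685 for Prss22, 0.09 for Hpn and -0.10 for Tmprss4. Both inhibitors thus followed St14 closely and Hpn and Tmprss4 did not. The points share the sort groups and 141 genes had r above 0.95, so this is a description.

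The reported substrates and partners of these proteases moved both ways. Of 16 genes listed, 15 were tested, with 5 lower and 3 higher in QZ1-hi and a median log2 fold change of -0.06. The epithelial sodium channel subunits, which channel-activating proteases cleave, were lower: Scnn1a by log2 fold change -1.40 (adjusted p = 0.000263), Scnn1b by -1.19 (adjusted p = 0.00155) and Scnn1g by -1.11 (adjusted p = 0.00718, all edgeR). F2rl1, which encodes PAR2, had 9.19 ± 4.34 and 27.5 ± 6.18 CPM (log2 fold change -1.58, adjusted p = 0.00551, edgeR). Cdcp1, a transmembrane glycoprotein cut by matriptase, was lower by -1.24 (adjusted p = 0.00141, edgeR). None of these 5 passed the test relative to the pan-epithelial markers.

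On the growth factor side, Hgf, which encodes the ligand that matriptase and hepsin activate, was higher in QZ1-hi at 9.73 ± 1.28 CPM against 2.26 ± 0.484 CPM (log2 fold change 2.11, adjusted p = 0.000346, edgeR). Its receptor Met was at 39.3 ± 8.30 and 53.8 ± 11.0 CPM and did not pass (log2 fold change -0.45, adjusted p = 0.131, edgeR), though with library size alone it did, at -0.90. Pdgfd, a latent growth factor, was higher by 2.99 (adjusted p = 0.000726, edgeR). Mst1r, the receptor RON, was higher by 2.20 (adjusted p = 0.0132, edgeR), and its call was lost in limma-voom, at an adjusted p of 0.0527, and when QZ1-hi library 3 was left out, at 0.0531. Plau, the urokinase gene, was at 21.4 ± 5.84 and 17.2 ± 4.48 CPM (log2 fold change 0.31, adjusted p = 0.444, edgeR). Hgf was thus higher in the same libraries as the endothelial, pericyte and fibroblast markers, and St14 lower there with the epithelial markers. Scnn1g and Mst1r were named after their values were seen, to complete short counts.

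Other members of the protease class were scarce. Of 17 further membrane-anchored serine proteases in the table only Tmprss13 and Corin had enough counts, 9 were at 0 in every library, and 0 were called in either direction by edgeR (0 at an unadjusted p under 0.05, in DESeq2 and in limma-voom). Tmprss13 was at 1.06 ± 0.631 CPM in QZ1-hi and 2.20 ± 1.36 CPM in QZ1-lo (log2 fold change -1.04, adjusted p = 0.338, edgeR), and Corin, known for processing natriuretic peptide, at 4.66 ± 1.70 and 3.79 ± 2.11 CPM (0.29, adjusted p = 0.734, edgeR). Of 12 other Kunitz-domain genes 7 were tested, 0 were lower by edgeR, at an unadjusted p under 0.05, in DESeq2 and in limma-voom, and 1 was higher, Tfpi, the tissue factor pathway inhibitor, at 14.6 ± 2.55 against 2.73 ± 1.46 CPM (log2 fold change 2.42, adjusted p = 0.000915, edgeR). The Kunitz genes called were therefore Spint1 and Spint2, lower with the epithelial markers, and Tfpi, higher in QZ1-hi.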

How the data were processed

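RNA of sorted lung cells was measured in 8 libraries, prepared with a stranded total RNA kit. The authors deposited raw counts per gene for 27179 Entrez Gene identifiers, made from aligned reads with Rsubread and not normalized; the submitters' processing notes name the build mm10 and DESeq2. The aligner, annotation and strand setting are not given in the sources used here. The series describes 4 biological replicates per group. A mouse symbol was found for 25275 identifiers and not for 1904. The smallest chi-square per degree of freedom between libraries of a group was 34.7, so no library was a repeat of another.

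Counts were tested in R 4.3.3 with edgeR 4.0.16 (TMM, filterByExpr with minimum count 10 and total 15, quasi-likelihood test, Benjamini-Hochberg adjustment over 15583 genes, threshold 0.05). The common dispersion was 0.113. The script was tested on simulated data. For single genes the group means of CPM were also set against an exact permutation test, two-sided. A fold against a group at 0 was computed with 3 counts in each of its libraries; floors cover counting error only, since the reads carry no molecular identifiers and may repeat a molecule. Exon lengths and overlaps were taken from GENCODE M21 on GRCm38 and promoters from RefSeq. Alternatives used DESeq2 1.42.0, limma 3.58.1, other scalings and filters, and fits without each library.

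The members and lists were chosen with earlier results of these data known. All 10 members were named. From other lists at most the 6 genes with the smallest p past the threshold were named, plus Epcam, Plau, F2rl1, Hgf and Met, and for St14 the 5 genes most like it. Lyz2 and Ptprc were named to show what the leukocyte sum holds. Imaging and single-cell experiments of the study were not analysed here.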

Additional observations from a re-analysis of the deposited data

Results flagged for a closer look

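Among 66 groups of 4 libraries examined, each for 1 gene of the members, the other proteases, the Kunitz genes or the substrates, 2 had a library standing apart from the other 3 by Dixon's gap over range. Chance gives about 1 in 20 groups. QZ1-lo library 3 had 4.23 CPM of Tmprss13 and the remaining 3 of that group had between 1.46 and 1.59 CPM, and its log2 fold change, not called with all libraries, was -0.51 (adjusted p = 0.714, edgeR) without that library. QZ1-lo library 1 had 36.8 CPM of F2rl1 and the remaining 3 had between 24.2 and 24.6 CPM, and without that library F2rl1 was still lower in QZ1-hi (log2 fold change -1.40, adjusted p = 0.0182, edgeR). No library stood apart in the 18 groups of the members that could be examined. The other 2, Tmprss7 and Tmprss9 in QZ1-hi, were at 0 throughout.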

How the results depend on the processing

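All values are log2 fold changes of QZ1-hi over QZ1-lo or counts of genes, and where a value changed the cause was not tested. Tmprss2, St14, Spint1 and Spint2 remained lower past the threshold in all fits with another tool, filter or general scaling and without each library. Tmprss7 did so where it was tested (not with at least 10 counts in every library). It entered those fits only through its QZ1-lo counts, so it could be called only as lower. With library size alone 2509 genes were called lower and 882 higher, and at an adjusted p under 0.01, 665 and 902. Without 1 library the counts were 938 to 1201 lower and 1136 to 1506 higher over all genes, 5 to 7 members lower and 0 higher, 5 substrates and partners lower and 2 to 3 higher, 0 other Kunitz genes lower and 1 higher, and 0 other membrane-anchored proteases in either direction. Members lower relative to the pan-epithelial markers fell from 2 to 1 in limma-voom, with at least 10 counts in every library, with Epcam and Cdh1 only, with summed marker counts and at an adjusted p under 0.01 (1 to 2 without 1 library; 2 to 3 members higher), and rose to 3, with Tmprss9, when no filter on low counts was used. Scaled to the club and ciliated markers, 1 member was lower and 4 were higher.

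Directions reversed as follows. Scaled to the club and ciliated markers: Tmprss2 0.066, St14 0.62, Prss8 1.18, Prss22 0.73, Spint1 0.77, Spint2 1.08, F2rl1 0.35, Met 1.5002, Tmprss13 0.98, Scnn1a 0.50, Cdcp1 0.71, Scnn1b 0.69, Scnn1g 0.79 and Epcam 0.79. Scaled to the alveolar type 2 markers: Tmprss4 -0.33, Hpn -0.34, Plau -0.082 and Corin -0.069. With library size alone: Tmprss4 -0.26, Hpn -0.31, Plau -0.16 and Corin -0.20.
Without 1 library the values spanned 0: Tmprss4 -0.13 to 0.30, Hpn -0.12 to 0.26 and, relative to the pan-epithelial markers, Prss22 -0.16 to 0.30 and Spint1 -0.10 to 0.13, with Spint1 at -0.056 in limma-voom.
Of 546 comparisons of a single gene's value with an alternative, 483 kept direction and call. No paired analysis was possible because the labels give no replicate numbers or mouse identities that join QZ1-hi and QZ1-lo libraries.

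Depth limits Tmprss7 and Tmprss9: 0 counts allow up to 0.127 to 0.179 CPM in a QZ1-hi library. Spread between libraries limits Prss8 and Prss22.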
